A study of Mus musculus with 12 samples.

Results

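Repair of damaged DNA was followed through 40 genes chosen by name: the genes of the Fanconi anemia pathway, of homologous recombination, and of the neighbouring routes of end joining, single-strand break repair and damage signalling. They were chosen with earlier results of these data known. All 40 names were found, each on 1 row of tables that hold 55487 rows. Polyadenylated RNA had been sequenced from G1E-ER4 cells, mouse red cell precursors of 1 line without a working Gata1 gene of their own, in which a fusion of GATA1 with part of the estrogen receptor is switched on by estradiol and the cells begin to mature. Every culture, control included, was given 100 nM β-estradiol and was harvested 24 h later. There were 3 libraries in each of 4 groups: control cells with no further addition named in the labels, cells given 50 µM DTPA (a metal chelator used to lower zinc), cultures with 50 µM DFO, which binds iron, and cultures with 0.2 mM SA, meant to block ALAD, an enzyme on the way to heme. For this last group the protocol text has DFO while titles and treatment tags have SA, and the titles were followed. The labels call the libraries biological replicates, and the p-values measure the spread between them only.

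The Fanconi pathway removes links between the strands of the DNA double helix. A core complex of Fanconi proteins attaches ubiquitin to the FANCD2 and FANCI clamp, nucleases cut around the link, and homologous recombination, in which BRCA1 and BRCA2 take part, copies the broken strand from the sister chromatid. Inherited loss of the pathway causes Fanconi anemia, a failure of the blood-forming marrow. Many of these genes are expressed mainly while DNA is being copied.

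Values are TPM, a level scaled to transcript length and library, which may be compared between genes. Log2 fold changes are differences of group means of log2(TPM + 1), a scale that understates the change of genes near 1 TPM. A gene is called here when its adjusted p by limma, corrected over all 11920 genes tested, is under 0.05. Depth was alike: the spacing of the values corresponded to between 19857400 and 24326329 reads per library. The zinc-bound metallothionein gene Mt2 stood at 2519 ± 83.7 TPM in control and 9.82 ± 1.26 with DTPA (mean ± SD, n = 3 each), and the transferrin receptor gene Tfrc at 883 ± 24.1 in control and 1245 ± 48.8 with DFO. Erythroid markers were all measured (9 of 9, summed level 37000 to 40300 TPM in control, 41400 to 43100 with DTPA, 27800 to 29700 with DFO and 22500 to 23100 with SA). Taken singly, 6 of these 9 were called lower and 2 higher with DTPA, 5 and 1 with DFO, and 7 and 0 with SA. The 2 called markers of largest absolute change with DTPA, among those of at least 5 TPM, both fell. They were Slc4a1 (log2 fold change -3.95) and Gata1 (-1.24), while 2 other markers were called higher. Whether the Gata1 reads came from the fusion or from the cells' own gene was not tested. Summed levels of 9 megakaryocyte markers were 8.23 to 9.34 TPM in control, 36.5 to 45.8 with DTPA, 10.3 to 10.9 with DFO and 8.27 to 9.87 with SA, with Gp1bb and Ppbp at 0 throughout. The 9 mast and myeloid markers, with Mcpt8, Mpo, Itgam and Ly6g at 0 throughout, and the 8 lymphoid markers, with Cd3g, Cd79b, Ms4a1 and Il7r at 0 throughout, summed to 0.352 to 0.502 and 0.38 to 0.757 TPM in control and to 2.6 to 3.54 and 1.37 to 2.04 with DTPA. The part of these other markers in the results below was not tested.

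In control cells the members spanned levels from 1.24 TPM (Exo1) to 171 TPM (Slx4), with a median of 9.77 TPM. Slx4, the scaffold that holds several DNA-cutting enzymes, stood highest at 167, 173 and 173 TPM in the 3 control libraries. Fance, a subunit that links the core complex to its substrate, followed at 92.1, 92.9 and 88.3 TPM. Next came the helicase gene Blm (64.7 ± 3.15), the break sensor gene Nbn (54.1 ± 0.49) and Fanca (45.8 ± 0.613). Each of these 5 lay further from the next than the sum of both SDs. At the other end 12 members had a mean under 5 TPM, among them Fancb, Fancc, Brip1, Chek1 and Brca2. The median member level was 5.01 TPM with DTPA, 10.8 with DFO and 9.86 with SA. With DTPA 9 members had a mean under 1 TPM, against 0 members in each other group. All 40 passed the filter of at least 1 TPM in at least 3 libraries; those 9 passed it through the other groups, where they were higher, so that a lower DTPA value is partly built into the filter for them. Their DTPA values rest on few reads, from 6 to 7 per library for Fancb and 9 to 18 for Exo1.

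**Figure D1:**
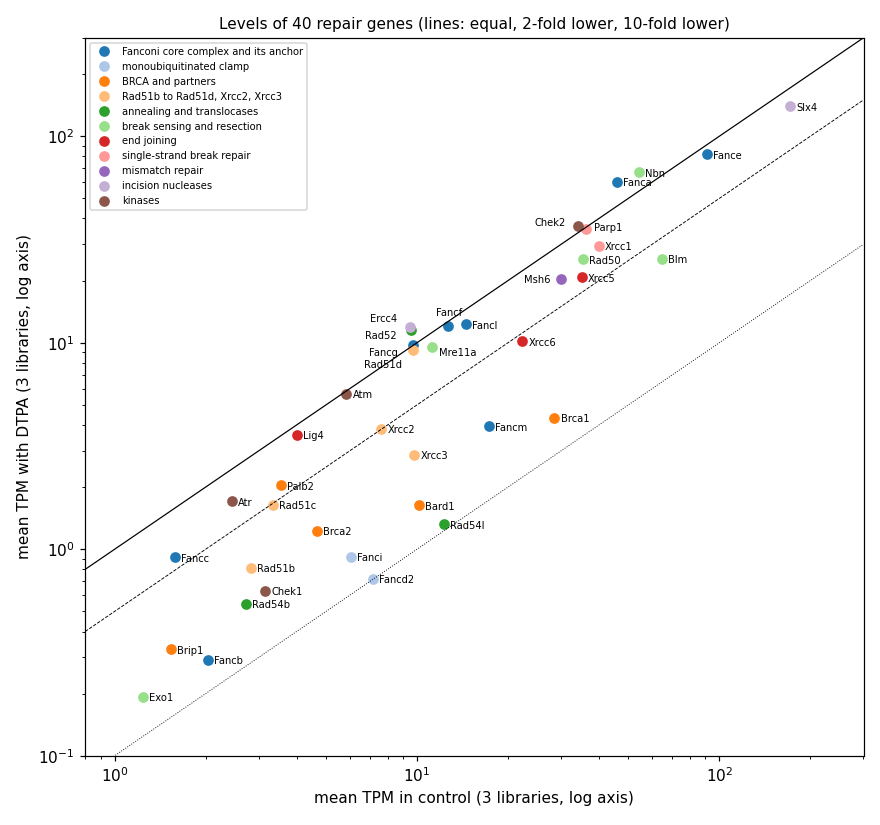
Mean TPM of each of the 40 members in control (horizontal, log axis) and with DTPA (vertical, log axis), 3 libraries per mean, coloured by role; the lines mark equal, 2-fold lower and 10-fold lower levels. Fancd2 and Rad54l lie near the 10-fold line, while Slx4, Fance, Nbn and Fanca, at the top, lie near equality.

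The members are protein-coding genes on 14 chromosomes. In the GENCODE M21 annotation of mm10, the build named by the submitters, 22 share no exon base with another gene. Another 7 share at least 10% of their exon bases: Fanca with Zfp276, Fanci with Polg, Fancl with Vrk2, Fancf with Gas2, Rad54l with Lrrc41 and Fancc with Gm16133, each on the opposite strand, and Rad54b with Fsbp on the same strand (35.9% of its exon bases). Whether the counting used strand is not given in the sources used here, so reads of such pairs may not be fully separated. Rad54l lies at chr4:116094264-116123690, Brca1 at chr11:101488764-101551955, Fancd2 at chr6:113531682-113597017, Bard1 at chr1:71027498-71103146, Fancm at chr12:65075603-65132058, Fanci at chr7:79391929-79450264, Fance at chr17:28313519-28326572, Fanca at chr8:123268300-123318576 and Slx4 at chr16:3979105-4003770.

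Because many members move together with DTPA, their promoters were searched, from 250 bases before to 50 after the start site, in RefSeq sequences of GRCm38.p6. An entry was found for 33 of 40 members (Exo1, Fancd2, Nbn, Rad50, Rad51d, Rad54b and Xrcc2 had none). Of the 33, 8 hold TTTNNCGC on either strand, where N is any base. This is a loose form of the letters that the E2F factors of the replication program can bind. The 8 are 24.2% of the 33, against 5.9% of all 27025 genes with an entry and 10.8% of the 7841 tested genes that have one. The letters CCAAT, bound by NF-Y, are in 22 of 33 (66.7%, against 41.1% and 44.7%), and TTTGAA, the core of the cell cycle element CHR, in 2 of 33 (6.1%, against 20.2% and 14.1%). Each motif was searched on both strands and counted on its own, so matches of different motifs may overlap. Promoters of 6 members are shown, each 5′ to 3′ on the strand of its gene with every TTTNNCGC match (or its reverse complement) in capitals. Bard1, Brca2 and Brip1 hold the letters and fell with DTPA to under 30% of control. Fancg and Chek2 hold them too and were not called lower, and Rad54l, which fell to under 20% of control, does not hold them.
Bard1, chr1:71102923-71103222, - strand: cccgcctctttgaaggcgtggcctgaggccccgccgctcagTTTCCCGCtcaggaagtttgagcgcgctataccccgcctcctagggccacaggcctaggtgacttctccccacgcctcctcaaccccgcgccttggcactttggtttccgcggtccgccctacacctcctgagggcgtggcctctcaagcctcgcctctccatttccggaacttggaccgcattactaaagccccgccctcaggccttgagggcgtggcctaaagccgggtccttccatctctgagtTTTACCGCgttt
Brca2, chr5:150522371-150522670, + strand: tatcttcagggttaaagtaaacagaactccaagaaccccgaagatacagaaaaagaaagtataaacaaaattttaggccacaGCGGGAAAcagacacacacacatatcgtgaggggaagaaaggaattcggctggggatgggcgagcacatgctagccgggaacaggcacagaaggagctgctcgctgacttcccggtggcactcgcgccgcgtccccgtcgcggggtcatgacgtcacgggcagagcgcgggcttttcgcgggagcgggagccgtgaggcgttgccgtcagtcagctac
Brip1, chr11:86201144-86201443, - strand: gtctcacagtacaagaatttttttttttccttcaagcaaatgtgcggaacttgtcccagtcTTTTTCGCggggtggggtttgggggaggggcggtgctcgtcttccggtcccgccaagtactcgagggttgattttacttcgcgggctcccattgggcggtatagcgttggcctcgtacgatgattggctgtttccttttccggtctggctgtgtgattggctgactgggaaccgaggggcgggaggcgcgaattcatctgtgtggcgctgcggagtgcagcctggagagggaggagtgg
Fancg, chr4:43010252-43010551, - strand: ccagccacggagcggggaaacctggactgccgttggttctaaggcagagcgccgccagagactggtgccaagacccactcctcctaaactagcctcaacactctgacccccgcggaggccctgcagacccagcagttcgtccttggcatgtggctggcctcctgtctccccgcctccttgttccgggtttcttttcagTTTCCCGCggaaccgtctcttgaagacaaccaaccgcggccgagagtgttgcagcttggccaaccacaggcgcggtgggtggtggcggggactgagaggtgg
Chek2, chr5:110839733-110840032, + strand: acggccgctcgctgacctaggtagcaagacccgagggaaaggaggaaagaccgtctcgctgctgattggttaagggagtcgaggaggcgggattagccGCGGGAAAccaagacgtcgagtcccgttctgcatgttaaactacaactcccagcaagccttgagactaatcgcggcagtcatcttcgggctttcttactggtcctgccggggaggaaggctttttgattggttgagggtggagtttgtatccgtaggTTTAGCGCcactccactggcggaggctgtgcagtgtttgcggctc
Rad54l, chr4:116123641-116123940, - strand: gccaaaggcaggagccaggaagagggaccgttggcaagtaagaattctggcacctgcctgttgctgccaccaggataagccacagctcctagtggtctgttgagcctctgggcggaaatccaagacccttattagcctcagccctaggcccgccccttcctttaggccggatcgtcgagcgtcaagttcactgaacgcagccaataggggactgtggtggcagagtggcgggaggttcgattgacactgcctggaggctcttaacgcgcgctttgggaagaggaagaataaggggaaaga
By the DTPA call, TTTNNCGC was in 6 of 24 promoters of members that fell, in 1 of 5 of members not called and in 1 of 4 of members that rose. A match is a run of letters and no measure of binding.

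DTPA was set against control to see what zinc shortage does during maturation. Most repair genes fell. Of the 40 members 29 were called lower, where 42.1% of all tested genes were, and 5 were called higher, where 23.5% were; 6 were not called. The 29 include the 9 members with a mean under 1 TPM with DTPA, for which a lower value is partly built into the filter. Members and gene lists were chosen with earlier results of these data known, so these shares are description and no independent test. The median log2 fold change of the members was -0.55, against -0.11 over all genes. A log2 fold change of -1 or below was called for 14 members, against 6.16% of all genes, and one of 1 or above for 0 members, against 3.38%. The 3 DTPA libraries all lay below the 3 controls for 28 members (44.1% of all genes) and all above for 4 (25.5%). In plain TPM, 17 members had a mean under 50% of control, 14 under 30% and 7 under 20%: Fancb, Fancd2, Fanci, Brca1, Bard1, Rad54l and Exo1. The share of all genes under these cutoffs was not taken, so these counts have no background to be read against. Fancb, Fancd2, Fanci and Exo1 are among the 9 members under 1 TPM with DTPA. The genes of DNA replication and mitosis moved in the same libraries: all 20 replication genes fell (median -1.82, for example -3.80 for Rrm2 and -3.67 for Mcm5 in log2) and all 15 mitosis genes fell (median -3.47). On the log2(TPM + 1) scale, which compresses low genes, Fancd2, Fanci, Fancm, Brca1, Bard1 and Rad54l lay below the replication median. The part of the cell cycle in the members' changes was not tested, and in bulk RNA fewer cells in S phase and less RNA per cell cannot be told apart.

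**Figure D2:**
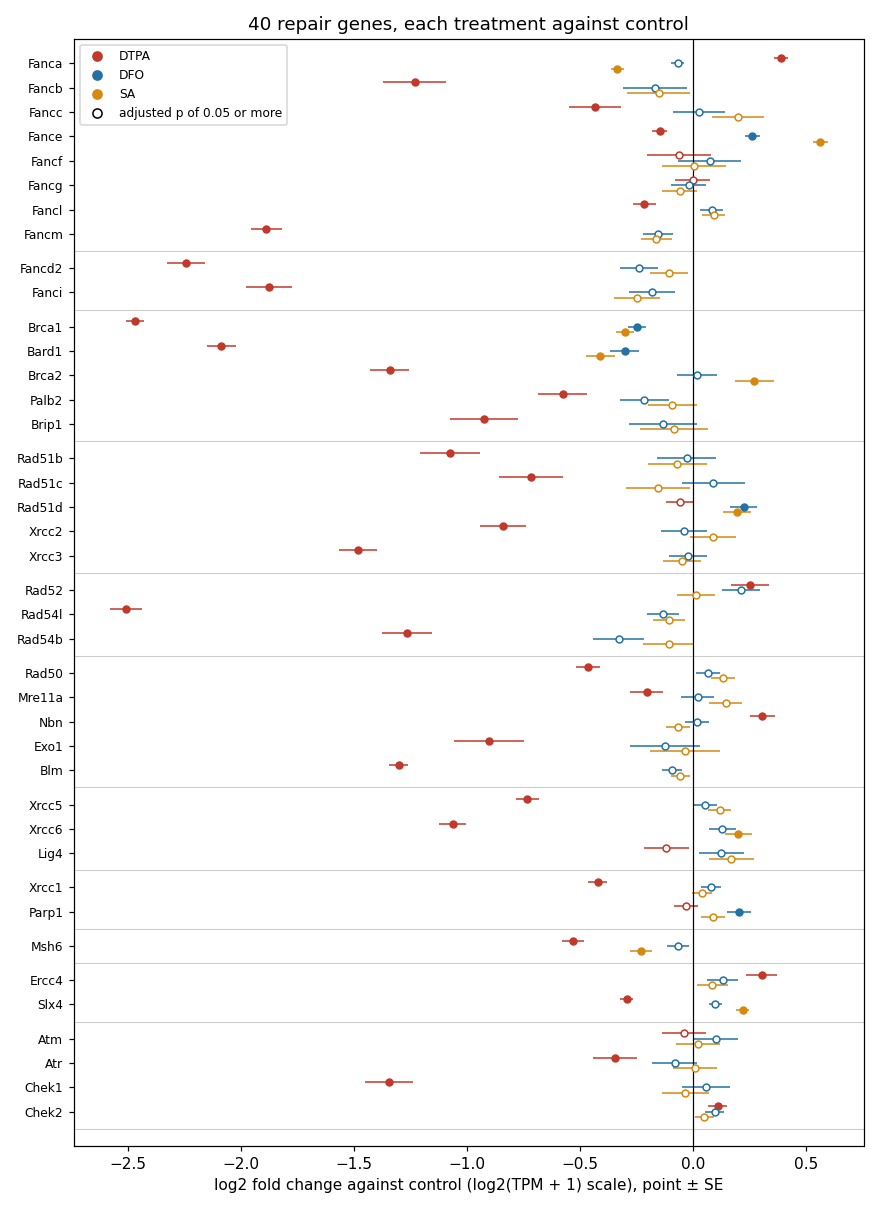
Log2 fold change against control (log2(TPM + 1) scale, point ± SE from limma) of each member for DTPA, DFO and SA, grouped by role; filled points have an adjusted p under 0.05. DTPA points reach -2.51 (Rad54l) on this scale, while DFO and SA points stay between -0.41 (Bard1 with SA) and 0.56 (Fance with SA).

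The core complex genes split. Fancm, the DNA translocase that anchors the complex at a stalled fork, stood at 16.7, 16.9 and 18.4 TPM in control and 3.62, 4.06 and 4.18 with DTPA, 4.39-fold lower (log2 -1.89 ± 0.0682 SE, adjusted p = 3.74e-10). Fancb, which joins the catalytic module, fell from 2.24, 2 and 1.89 to 0.333, 0.251 and 0.295 TPM (6.97-fold, adjusted p = 9.75e-06). In both genes no DTPA library came near the lowest control. Fancc fell from 1.59 ± 0.0561 to 0.914 ± 0.0694 TPM and Fancl, the ubiquitin ligase of the complex, from 14.5 ± 0.826 to 12.3 ± 0.0776, the latter no longer called once scaled by median-of-ratios (adjusted p = 0.111) or by voom on the reads (0.0569). Fance was called lower with a log2 fold change of -0.15 (92.1, 92.9 and 88.3 against 79.1, 86.6 and 80.7 TPM). That call did not hold with median-of-ratios scaling, where adjusted p was 0.518, with trimmed-mean scaling (0.0612) or by voom (0.0676). Fancf, an adaptor of the complex, and Fancg, a scaffold subunit, were not called: Fancg stood at 9.81, 9.45 and 9.95 TPM in control and 9.22, 10.1 and 9.84 with DTPA (log2 fold change -0.002, SE 0.0777), and Fancf at 12.7 ± 0.914 and 12.1 ± 0.443.

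Fanca, a large subunit of the same complex, went the other way. It rose from 45.4, 45.6 and 46.5 to 60.3, 61.2 and 59.3 TPM, every DTPA library lying above every control (1.31-fold, log2 fold change 0.39, SE 0.0291, adjusted p = 2.37e-07). Of the 8 genes of the complex it alone was called higher. Of its exon bases 10.5% are shared with Zfp276.

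Both genes of the clamp fell. Fancd2 stood at 8.03, 6.68 and 6.79 TPM in control and 0.708, 0.778 and 0.674 with DTPA, 9.95-fold lower (log2 fold change -2.24, SE 0.0837, adjusted p = 4.85e-10). Its partner Fanci stood at 6.33, 5.71 and 6.17 and 0.876, 0.942 and 0.948, 6.58-fold lower (log2 fold change -1.88, adjusted p = 1.22e-08). The 3 libraries of a group lay close together in both genes and the groups were far apart.

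All 5 genes of the BRCA group fell. Brca1, which encodes a ubiquitin ligase that starts resection and recombination, stood at 28.9, 28.1 and 28.4 TPM in control and 4.21, 4.29 and 4.49 with DTPA (log2 fold change -2.47, SE 0.0396, adjusted p = 4.96e-13), 6.58-fold lower. Its obligate partner Bard1, whose promoter is printed above, stood at 10.6, 9.65 and 10.3 and 1.74, 1.66 and 1.5, 6.24-fold lower (log2 fold change -2.09, SE 0.0643, adjusted p = 9.77e-11). In both genes the DTPA libraries lay far below the lowest control. Brca2, a mediator of recombination, fell 3.78-fold from 4.94, 4.26 and 4.77 to 1.08, 1.42 and 1.2 TPM, and the helicase gene Brip1 4.69-fold to 0.283, 0.282 and 0.417. Palb2, the bridge between BRCA1 and BRCA2, fell least of the group, from 3.4, 3.25 and 4.01 to 2.03, 1.9 and 2.22 TPM (1.73-fold, adjusted p = 0.000585).

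The genes Rad51b, Rad51c, Rad51d, Xrcc2 and Xrcc3, whose products act together in recombination, were unequal. Xrcc3 fell from 9.68, 9.5 and 10.2 to 3.01, 2.52 and 3.08 TPM (3.42-fold, adjusted p = 1.92e-08), Rad51b 3.47-fold to 0.815 ± 0.109, Rad51c 2.03-fold to 1.65 ± 0.278 and Xrcc2 1.99-fold to 3.85 ± 0.665. Rad51d stood at 9.13, 9.4 and 10.6 TPM in control and 8.93, 9.35 and 9.55 with DTPA, overlapping groups with no call (log2 fold change -0.059, SE 0.0601, adjusted p = 0.409). Among the motors and annealing factors, Rad54l, which drives strand exchange on chromatin, had the lowest log2 fold change of all members on the log2(TPM + 1) scale, while in plain TPM Fancd2 fell by a larger factor. Rad54l went from 11.9, 11.9 and 13 to 1.15, 1.51 and 1.32 TPM, 9.23-fold lower (log2 fold change -2.51, SE 0.0706, adjusted p = 4.5e-11). Its relative Rad54b fell 5-fold from 2.72 ± 0.323 to 0.545 ± 0.104. Rad52, an annealing factor, rose from 9.73, 10.4 and 8.6 to 11, 12.6 and 11.1 TPM (1.21-fold, adjusted p = 0.02), a call lost without control library 3 (adjusted p = 0.086) or DTPA library 2 (0.0844).

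**Figure D3:**
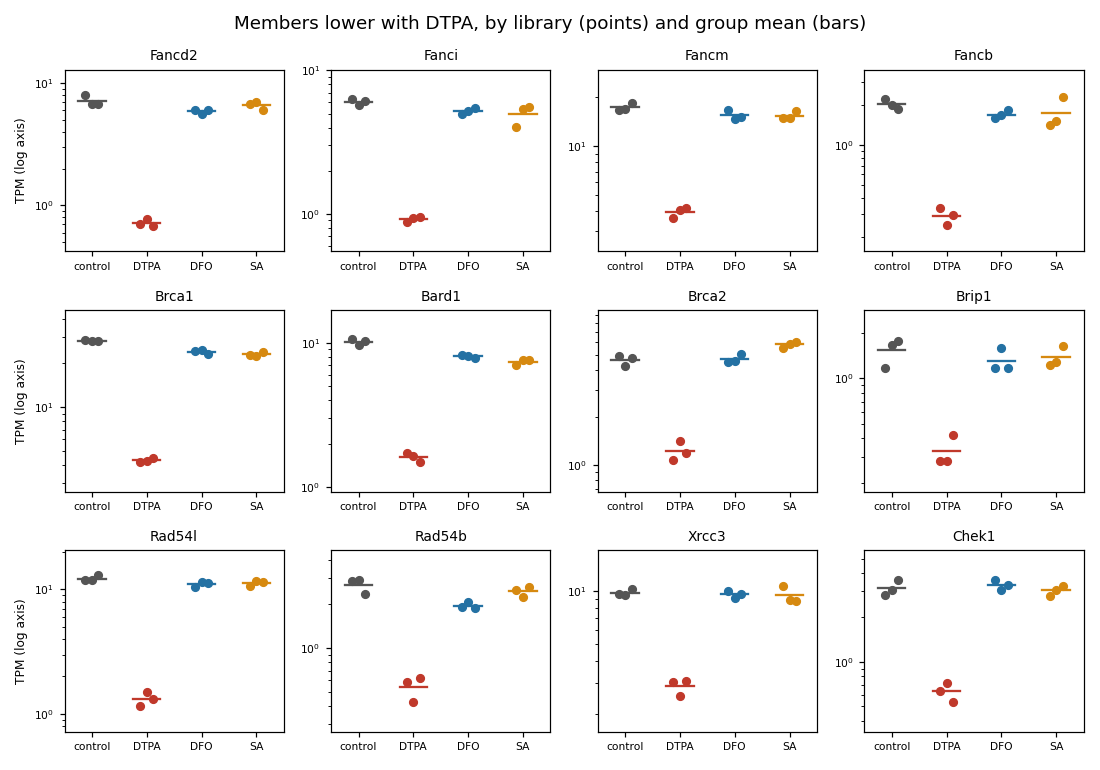
TPM (log axis) in each of the 12 libraries for 12 members called lower with DTPA; points are libraries and bars are group means. In each panel the 3 DTPA points lie below all 9 others, as for Chek1 at 0.636, 0.72 and 0.537 TPM.

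Break sensing did not move as one complex. In the MRE11, RAD50 and NBN complex, which binds broken ends, Rad50 fell from 37.1, 33.1 and 35.7 to 24.6, 26.6 and 24.7 TPM (adjusted p = 9.71e-06) while Nbn rose from 53.6, 54.4 and 54.4 to 67, 71 and 63.7 (1.24-fold, adjusted p = 0.000322). Mre11a, the nuclease, was called lower at 8.94, 9.34 and 10.4 TPM against 12.2, 11.1 and 10.3 (adjusted p = 0.0265), but the groups overlap. The call did not hold with no filter (adjusted p = 0.0508), median-of-ratios (0.252) or trimmed-mean scaling (0.094), the 6 libraries alone (0.0591) or voom (0.0651), nor without control library 1 (0.111), control library 2 (0.0511), DTPA library 1 (0.0978) or DTPA library 2 (0.071). Blm, the helicase that unwinds recombination intermediates, fell 2.53-fold from 68.3, 63 and 62.6 to 25.6, 25 and 26.1 TPM (log2 fold change -1.30, adjusted p = 1.9e-10). Exo1, a resection nuclease and the lowest member in control, fell from 1.54, 1.03 and 1.16 to 0.3, 0.147 and 0.133 TPM (adjusted p = 0.000283).

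End joining and single-strand break repair each held genes that fell and 1 that was not called. Xrcc6 and Xrcc5 encode Ku70 and Ku80, the ring that caps broken ends. Xrcc6 fell 2.2-fold from 21.9, 22.7 and 22.4 to 9.32, 10.6 and 10.6 TPM, and Xrcc5 1.7-fold from 35.4, 33.4 and 36.6 to 21.2, 20.9 and 20.1 (adjusted p = 2.06e-08 and 1.24e-07). Lig4, which seals the ends, was not called (4.01 ± 0.499 and 3.59 ± 0.065 TPM, adjusted p = 0.309). The single-strand break scaffold gene Xrcc1 fell from 39.9 ± 1.48 to 29.5 ± 1.31 TPM, whereas Parp1, the sensor of such breaks, stood at 36.6, 34.6 and 37.6 and 37, 35.2 and 34 TPM and was not called (log2 fold change -0.032, SE 0.0524). Msh6, a mismatch sensor, fell from 30.7, 29.5 and 29.5 to 19.5, 21.9 and 19.8 TPM (adjusted p = 1.32e-06). Of the incision genes, Slx4 fell from 171 ± 3.45 to 139.5 ± 5.38 TPM (adjusted p = 1.99e-06), and Ercc4, which encodes the XPF nuclease docked on SLX4, rose from 10.4, 8.47 and 9.61 to 11.7, 12.6 and 11.5 TPM (adjusted p = 0.00211).

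The damage kinases differed too. Chek1, which restrains replication origins and entry into mitosis, fell 5-fold from 2.83, 3.06 and 3.58 to 0.636, 0.72 and 0.537 TPM (log2 fold change -1.35, adjusted p = 3.5e-07), and Atr, the kinase upstream of it, from 2.45 ± 0.0609 to 1.71 ± 0.166 (adjusted p = 0.00852). Atm, the kinase of double-strand breaks, was not called (5.85 ± 0.49 and 5.68 ± 0.851 TPM, adjusted p = 0.729). Chek2, its target, was called higher with a log2 fold change of 0.11 (34.1, 32.5 and 35.6 against 34.9, 38.5 and 37 TPM, adjusted p = 0.0398). Those groups overlap, and the call was lost without control library 1 (adjusted p = 0.0761), control library 2 (0.152), DTPA library 2 (0.155), DTPA library 3 (0.0913), any 1 DFO library (0.05 to 0.0514) or SA library 2 (0.0502), and with no filter (0.0598), the 6 libraries alone (0.0967) or a replicate block (0.0653). Of the kinase genes Atr and Chek1 thus fell, and Atm and Chek2 were not called lower.

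Repair genes outside the 40, from lists of the same pathways, gave these counts with DTPA, to be read against 42.1% lower, 23.5% higher and a median of -0.11 over all genes. In the crosslink pathway 11 of 14 fell and 1 rose (median -0.61), with Uhrf1, a chromatin reader, falling from 28.3 ± 2.64 to 2.2 ± 0.495 TPM and the nuclease partner gene Eme1 from 13.2 ± 0.497 to 2.21 ± 0.0985. In recombination and resection 14 of 20 measured genes fell and 3 rose (median -0.69), with the recombination gene Rad51ap1 at a log2 fold change of -2.79 and the resolvase gene Gen1 at -2.52. Of 19 damage signalling genes found (H2afx was not found under that symbol) 17 fell and 1 rose (median -0.56), among them Clspn, the adaptor between ATR and CHEK1, at -2.34 and Wee1, an inhibitor of mitotic entry, at -1.85 in log2. Of 8 other end joining genes 1 fell and 3 rose (median 0.11), including Nhej1, a ligase cofactor gene, from 15.9 ± 0.637 to 35.2 ± 2.32 TPM. Base excision genes split 7 lower and 5 higher of 18 (median -0.17), nucleotide excision genes 10 and 3 of 18 (median -0.21) and mismatch genes 4 and 1 of 7 (median -0.46), where Lig1, the replication ligase, had a log2 fold change of -2.56 and the mismatch sensor gene Msh3 one of 1.52. Msh3 thus rose in the libraries in which Msh6 fell.

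**Figure D4:**
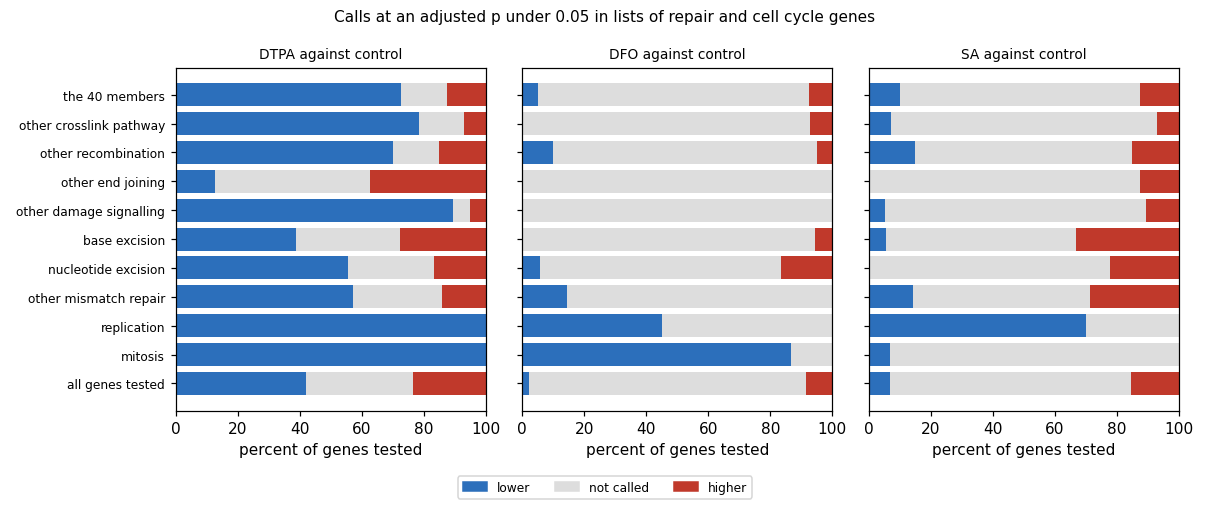
Percent of tested genes called lower, not called or called higher at an adjusted p under 0.05 in each treatment against control, for the 40 members, lists of other repair and cell cycle genes, and all 11920 genes tested. With DTPA all 20 replication and 15 mitosis genes were lower, against 29 of 40 members and 5015 of all genes.

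Low iron, compared between DFO and control, changed few members. Of 40 members 3 were called higher and 2 lower, where 8.39% and 2.28% of all tested genes were, and 35 were not called. The median log2 fold change of the members was 0.016, against 0.045 over all genes. The DFO libraries lay wholly below control for 12 members, where 6.47% of all genes did, and wholly above for 6, where 23.7% did. Brca1 fell from 28.9, 28.1 and 28.4 to 24.1, 24.4 and 23.1 TPM (log2 fold change -0.25, SE 0.0396, adjusted p = 0.00286). Bard1 fell from 10.6, 9.65 and 10.3 to 8.28, 8.06 and 7.83 (log2 fold change -0.30, SE 0.0643, adjusted p = 0.0127; 0.0503 without DFO library 3). Every DFO library lay below every control in both genes. Fance rose from 92.1, 92.9 and 88.3 to 110.2, 109.9 and 108 TPM (log2 fold change 0.26, SE 0.0332, adjusted p = 0.000741).

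Rad51d and Parp1 were called higher with DFO, Rad51d at 11.2, 12.1 and 11.2 TPM (log2 0.22 ± 0.0601 SE, adjusted p = 0.0385). Parp1 stood at 42.21, 43.41 and 39.96 TPM (log2 0.20 ± 0.0524 SE, adjusted p = 0.032). Neither call held with no filter (adjusted p = 0.072 for Rad51d and 0.0643 for Parp1), median-of-ratios factors (0.118 and 0.109), trimmed-mean scaling (0.109 and 0.102) or a replicate block (0.062 and 0.0581). They were also lost without control library 1 (0.117 and 0.066), control library 2 (0.114 and 0.107), DFO library 1 (0.0672 and 0.0875) or DFO library 2 (0.124 and 0.105), and Rad51d without DFO library 3 (0.0717), DTPA library 2 (0.052), SA library 1 (0.0509) or SA library 2 (0.0537). Other members with wholly separate groups were not called: Fancd2 stood at 6.03, 5.62 and 6.01 TPM with DFO (adjusted p = 0.0919) and Rad54b at 1.91, 2.08 and 1.88 (adjusted p = 0.0881). Some of them were called under other settings. With median-of-ratios factors Fancd2 (adjusted p = 0.049), Blm (0.0446) and Fanca (0.0217) were called lower. By voom Fancd2 (0.00995), Rad54b (0.0218), Blm (0.0261), Fanca (0.0458) and Fancm (0.0135) were called lower and Slx4 (0.0368) higher. Replication genes fell in 9 of 20 and mitosis genes in 13 of 15 (medians -0.20 and -0.27), and their part in the members' values was not tested. In the other repair lists between 0 and 4 genes were called, such as the nucleotide excision damage reader gene Xpa, which rose by 0.34 in log2.

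Inhibition of ALAD, compared between SA and control, gave 5 members called higher and 4 lower, where 15.4% and 6.74% of all tested genes were, and 31 not called. The member median was -0.016 and that of all genes 0.047. The SA libraries lay wholly above control for 7 members and wholly below for 7, against 26.8% and 11.7% of all genes. Fance had the largest change: it rose 1.48-fold from 92.1, 92.9 and 88.3 to 135, 137 and 132 TPM (log2 fold change 0.56, SE 0.0332, adjusted p = 9.83e-07). Slx4 rose from 167, 173 and 173 to a mean of 199 ± 1.37 TPM (log2 fold change 0.22, adjusted p = 0.000229). The highest 2 members in control were thus higher still with SA, with no overlap of libraries. Fanca fell from 45.4, 45.6 and 46.5 to 37, 34.9 and 36.4 TPM (log2 fold change -0.34, SE 0.0291, adjusted p = 1.25e-05). Bard1 fell to 7, 7.58 and 7.65 (log2 fold change -0.41, SE 0.0643, adjusted p = 0.000939), while Brca1 fell to 22.7, 22.4 and 23.8 (log2 fold change -0.30, SE 0.0396, adjusted p = 0.00027). Msh6 fell to 24.2, 25.4 and 26.3 TPM (adjusted p = 0.00532).

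Brca2, Xrcc6 and Rad51d were called higher with SA near the threshold. Brca2 stood at 5.55, 5.87 and 6.03 TPM against 4.94, 4.26 and 4.77 (log2 fold change 0.27, SE 0.0872, adjusted p = 0.0467), Xrcc6 at 25.8 ± 1.49 against 22.4 ± 0.391 (adjusted p = 0.0373) and Rad51d at 11.2 ± 0.376 against 9.72 ± 0.798 (adjusted p = 0.0407). With median-of-ratios factors these became 0.0875, 0.134 and 0.137, and with no filter 0.106, 0.071 and 0.0736. The Brca2 call was lost without any 1 of the control, DFO or SA libraries or DTPA library 3 (adjusted p from 0.0544 to 0.152). Rad51d was lost without control library 1 (0.133) or 2 (0.119), any 1 SA library (0.0555 to 0.119), DTPA library 2 (0.0535) or DFO library 1 (0.0504) or 3 (0.0537). Xrcc6 was lost without any 1 control library (0.0686 to 0.0989), SA library 1 (0.104) or 2 (0.126) or DFO library 3 (0.0504). Some members not called with SA were called under other settings. Fanci and Fancm were called lower with median-of-ratios factors (adjusted p = 0.0499 and 0.0282), trimmed-mean scaling (0.0468 and 0.0249) and voom (0.0209 and 0.00508). Xrcc5 was called higher without SA library 2 (0.0449). Replication genes fell in 14 of 20 (median -0.23) and mitosis genes in 1 of 15 (median -0.061), and their part was not tested. Among the other repair lists, 6 base excision genes rose and 1 fell of 18, with the glycosylase genes Neil2 and Ung rising by 0.43 and 0.32 in log2, and Lig1 falling, at -0.34.

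**Figure D5:**
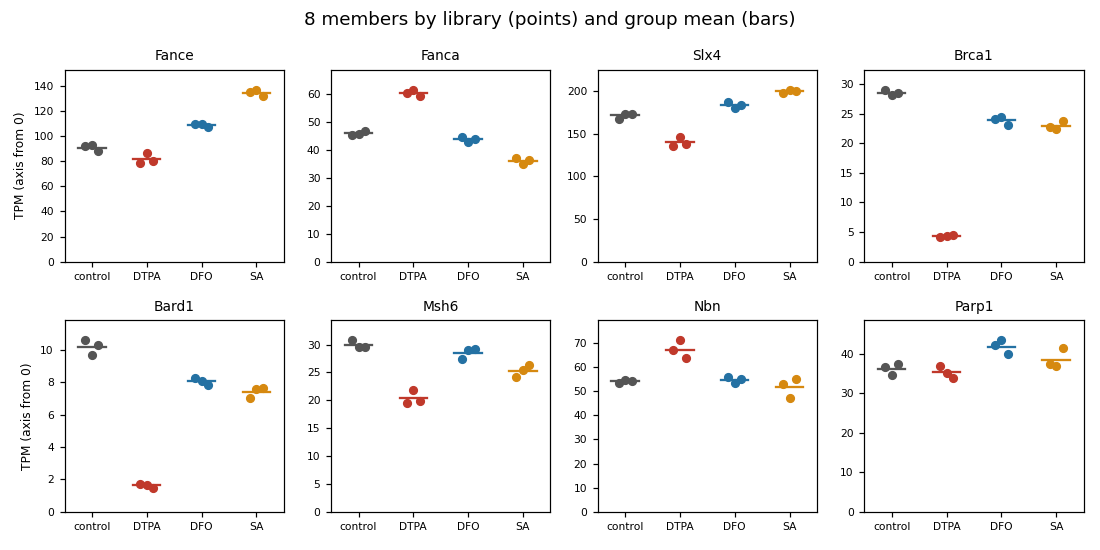
TPM (axis from 0) in each of the 12 libraries for 8 members; points are libraries and bars are group means. Fance is highest with SA (135, 137 and 132 TPM) and Fanca highest with DTPA (60.3, 61.2 and 59.3 TPM).

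The treatments were also compared with each other, in pairs of groups that hold no control library. DTPA against DFO gave 32 members lower and 3 higher, where 46.4% and 19.5% of all genes were, and DTPA against SA 31 and 4, where 47% and 20.1% were. The 32 and the 31 both include the 9 members with a mean under 1 TPM with DTPA. For those a lower DTPA value is partly built into the filter here too. Brca1 was lower with DTPA than with DFO (log2 difference -2.22) and than with SA (-2.17; adjusted p = 1.36e-12 and 1.36e-12), and so was Rad54l (log2 differences -2.38 and -2.40). Fanca and Nbn were higher with DTPA than with either other treatment, Fanca by 0.46 and 0.72 and Nbn by 0.29 and 0.37. DFO against SA gave 2 members higher and 2 lower, where 7.21% and 6.31% of all genes were. Fanca was higher with DFO (0.27, adjusted p = 0.000139) and Fance lower (-0.30, adjusted p = 0.000157). Msh6 was higher (0.17, adjusted p = 0.0436) and Slx4 lower (-0.12, adjusted p = 0.0151). With 1 library left out, members higher fell to 1 without any 1 control library, DTPA library 3, DFO library 2 or 3, or SA library 1 or 2, and members lower fell to 1 without DFO library 2 or SA library 2. Brca1 and Bard1, lower than control with both, did not differ by a call between DFO and SA (log2 differences 0.054, SE 0.0396, and 0.11, SE 0.0643).

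Levels of Fance therefore ran, from low to high, DTPA, control, DFO and SA, with every neighbouring pair called apart, although DTPA and control were not under the other scalings. Those of Fanca ran SA, DFO, control and DTPA, with only DFO and control not called apart (adjusted p = 0.162; 0.0217 with median-of-ratios and 0.0293 with trimmed-mean factors). In the 3 comparisons with control, which share the same control libraries, Brca1 and Bard1 were called lower each time. Fancf, Fancg, Lig4 and Atm were called in none, with SEs of 0.141, 0.0777, 0.099 and 0.0967 in log2. Scaling matters most to the DTPA comparisons: with median-of-ratios factors the median log2 fold change over all genes lay 0.11 higher for DTPA against control and 0.16 higher for DTPA against DFO or SA, and the members' values shift with it.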

How the data were processed

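The data are 12 libraries of G1E-ER4 cells, placed in 4 groups of 3 by their titles, made with a stranded mRNA kit per the labels' protocols. What the authors deposited is TPM, 1 file for each library. The submitters' processing notes name Trimmomatic 0.33, FastQC, HISAT2 2.1.0, featureCounts, edgeR and the build mm10, without settings. Repeated symbols (114, on 234 rows) include no member. Multiplying TPM by GENCODE M21 exon length gave whole reads, to 0.1 read, in 98.8% to 99.0% of values up to 200 reads, and from this the depth. No pair of replicates was a copy (chi-square per degree of freedom 2.04 to 5.61).

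Features reaching 1 TPM in 3 or more libraries entered a limma 3.58.1 model (R 4.3.3) of log2(TPM + 1) with a mean for each group and a trended variance. The model was also run on data simulated from the control means and within-group spreads of these same libraries. Benjamini-Hochberg adjustment ran over 11920 genes in each of 6 comparisons, with a threshold of 0.05. Fold values without log2 are ratios of mean TPM. Tables and plots were made in Python 3.11.15 (pandas 2.3.3, numpy 2.4.6, matplotlib 3.10.9).

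Members and gene lists were chosen with earlier results of these data known. All 40 members are covered. Every library's value is given for the 5 called members of largest change in each treatment, and every control library's value for the 2 of highest level. From each other list at most 2 called genes of at least 5 TPM could be named, and not all of these are. Settings varied were the pseudocount (0.1 or 5), the filter (none or 5 TPM), scaling (median-of-ratios or trimmed-mean), robust variance, the libraries entered, a replicate block and the omission of each library. Voom on the recovered reads was chosen after seeing the data. Promoter sequences are from RefSeq (GRCm38.p6). Some items are not reported here.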

Additional observations from a re-analysis of the deposited data

How the results depend on the processing

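Of 29 members called lower with DTPA, 26 were called under every alternative that tested them, and so were Fanca, Nbn and Ercc4 (higher). With DFO this held for Fance and Brca1, and with SA for Fance, Slx4, Fanca, Brca1, Bard1 and Msh6. No called member reversed under any alternative. A filter of 5 TPM, which tests fewer genes, gave 19 lower for DTPA against control, 21 against DFO and 20 against SA. Members higher with DFO went from 3 to 1 with no filter, both other scalings and the replicate block, and members lower from 2 to 5 (median-of-ratios) and 7 (voom). Members higher with SA went from 5 to 2 with no filter and both other scalings, and to 3 with the replicate block and the 6 libraries alone. Members higher with DTPA than DFO went from 3 to 6 (median-of-ratios), and with DFO than SA from 2 to 1 with no filter, the replicate block and the 6 libraries alone. The cause was not tested.

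With 1 library left out, members higher and lower numbered 3 to 5 and 28 to 29 for DTPA, 1 to 4 and 1 to 2 for DFO, 2 to 5 and 4 to 4 for SA, 2 to 3 and 28 to 32 for DTPA against DFO, 2 to 4 and 30 to 32 for DTPA against SA, and 1 to 2 and 1 to 2 for DFO against SA. The lowest count higher came without DTPA library 2 for DTPA, and without DTPA library 2 or SA library 3 for DTPA against SA. Same-numbered libraries did not deviate together (correlations -0.043 to 0.053 over 18 pairs, and 1 of 12 libraries correlated best with its own number in every other group). The main model therefore did not pair them. Such correlations cannot show whether same-numbered libraries were grown or handled together. The block also ended the call of Chek2 with DTPA. Depth limits the members under 1 TPM most: Fancb has 6 to 7 reads per DTPA library.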
